A study of Mus musculus with 7 samples.

Results

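The genes Dnmt1, Uhrf1, Hells, Dnmt3a, Dnmt3b, Ezh2, Suz12 and Eed encode enzymes and partners of DNA methylation and of Polycomb repressive complex 2 (PRC2), and were followed across cells sorted from the mouse intestine. They were taken as the gene probes that carry one of these 8 symbols on an Agilent whole mouse genome array. This gave 15 of 41174 gene probes, of which 13 passed the filter on dim signal, and the brightest probe that passed was used for each of the 8 genes among 17507 genes tested. Cells of high green fluorescence (GFP) were sorted from 2 mouse lines that both carry GFP and a tamoxifen-inducible Cre, driven by the promoter of Dll1 (Dll1-EGFP-ires-CreERT2) or of Lgr5 (Lgr5-EGFP-ires-CreERT2). Dll1 is a Notch ligand made by early secretory cells, and Lgr5 is a Wnt pathway receptor of crypt base stem cells. GFP-high Dll1 cells were divided by their surface CD24 into a CD24 low, a CD24 medium and a CD24 high group, with 2 arrays each, and 1 array held the GFP-high Lgr5 cells. The labels used here name no treatment and no age. The comparisons ask how genes of these chromatin pathways differ between Dll1 cells at 3 CD24 levels, and between Dll1 cells and Lgr5 stem cells.

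DNA methylation at CG sites is copied after each round of DNA replication by Dnmt1, which Uhrf1 brings to newly made DNA and which Hells, a chromatin remodeller, helps to reach packed chromatin. Dnmt3a and Dnmt3b place methyl groups on DNA that had none. PRC2 methylates lysine 27 of histone H3 through its catalytic subunit Ezh2, which needs Suz12 and Eed, and it helps to keep lineage genes silent in stem cells and their progeny. Dll1 cells of the crypt are short-lived secretory progenitors that can return to a stem cell state after tissue damage, which is why genes that write heritable chromatin marks are of interest in them.

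Levels are log2 of the sample (Cy3) over RNA of whole small intestine (Cy5) on the same array, so 0 means the level of the whole organ, and a difference of 1 is a factor of 2. A level of 1 gene says nothing about its abundance relative to another gene. An array such as medium 2 is named by its CD24 group and replicate number. The series calls its replicates biological and does not tie them to animals, so p-values measure the spread between these samples. With 1 Lgr5 array, that group is assumed to vary like the others, and all comparisons with it share that array. In sorted bulk samples, fewer cells that express a gene and less RNA of it per cell cannot be told apart. In CD24 high, 42.5 to 44.4% of gene spots had a sample signal well above background, against 52.8 to 60.5% in the other groups, and the 7 arrays alone limit the precision. Slide 1 held Lgr5, high 1 and medium 1, and slide 2 held the other 4 arrays, both CD24 low arrays among them. Cd24a, which encodes the sorted protein, stood at −0.68 and −0.59 in CD24 low, 0.88 and 0.75 in CD24 medium, 3.34 and 3.47 in CD24 high and −0.11 in Lgr5 cells. Dll1 stood at 2.56 and 2.52 in CD24 low, 2.81 and 2.53 in CD24 medium, 0.61 and −0.04 in CD24 high and 0.88 in Lgr5 cells, so Dll1 mRNA in CD24 high lay below the Lgr5 array despite the gate on Dll1 GFP. Lgr5 stood at −1.23 and −0.75 in CD24 low, −0.66 and −0.54 in CD24 medium, 1.36 and 1.31 in CD24 high and 2.51 in Lgr5 cells.

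The promoters of these genes were searched for letters of E2F-type sites, since E2F factors switch on DNA replication genes in mammals and several of the 8 genes moved with such genes. The motif was chosen after those values had been seen. The strings searched on both strands were TTTGGCGC, TTTCCCGC, TTTCGCGC and TTTGCCGC, in windows from 250 bases before to 50 bases after each RefSeq start site on GRCm38.p6. Of 32851 windows of all genes, 744 (2.265%) held one of them, and of 13 windows of the 8 genes, 5 did. These windows belonged to Dnmt1, Uhrf1, Hells, Ezh2 and Suz12, and are shown as 30 bases each with the match in capitals, written 5′ to 3′ on the strand of the gene. In Dnmt1 the first match is the reverse complement of TTTCGCGC.
Dnmt1, chr9:20952824-20952853, minus strand, 219 bases before the start site: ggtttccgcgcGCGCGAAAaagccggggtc
Dnmt1, chr9:20952574-20952603, minus strand, position 34 after the start site: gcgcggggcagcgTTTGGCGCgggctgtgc
Uhrf1, chr17:56304117-56304146, plus strand, 185 bases before the start site: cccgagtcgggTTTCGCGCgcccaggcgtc
Hells, chr19:38930917-38930946, plus strand, 62 bases before the start site: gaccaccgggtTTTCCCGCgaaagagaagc
Ezh2, chr6:47595009-47595038, minus strand, position 4 after the start site: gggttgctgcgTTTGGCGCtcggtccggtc
Suz12, chr11:79992876-79992905, plus strand, 219 bases before the start site: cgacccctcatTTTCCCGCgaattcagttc
No window of Dnmt3a, Dnmt3b or Eed held these letters. A match describes the sequence and is neither a binding site nor a cause. Of the 5 genes with a match, Dnmt1, Uhrf1, Hells and Ezh2 were lower in CD24 high than in Lgr5 cells, whereas Suz12 passed the test in no comparison. Dnmt3b, with no match, was lower as well.

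The arrays measure each gene through 60-base probes, and 4 of the chosen probes cross an intron, so that they match spliced mRNA. These are shown because all 4 carry calls given here, and because the Dnmt3a and Eed probes disagree with other probes of their gene.
Dnmt1, chr9:20711973-20712341 on mm9: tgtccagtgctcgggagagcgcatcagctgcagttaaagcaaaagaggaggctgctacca
Dnmt3a, chr12:3906868-3907649 on mm9: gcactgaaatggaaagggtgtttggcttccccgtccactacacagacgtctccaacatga
Ezh2, chr6:47482047-47482942 on mm9: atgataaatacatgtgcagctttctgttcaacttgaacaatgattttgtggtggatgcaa
Eed, chr7:97113321-97116230 on mm9: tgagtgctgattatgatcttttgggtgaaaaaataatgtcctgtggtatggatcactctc
The probes of Uhrf1 (chr17:56462657-56462716), Hells (chr19:39039914-39039973), Dnmt3b (chr2:153513083-153513142) and Suz12 (chr11:79847251-79847310) each lie in 60 contiguous bases.

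Of the genes that maintain DNA methylation, Dnmt1 and Uhrf1 were highest in Lgr5 cells and lowest in CD24 high, and Hells stood out in Lgr5 cells. Dnmt1, the maintenance methyltransferase, stood at 0.68 and 1.14 in CD24 low, 0.57 and 0.46 in CD24 medium, −0.39 and −0.55 in CD24 high and 1.60 in Lgr5 cells. No CD24 high array reached any other array, and CD24 low and CD24 medium both lay between CD24 high and Lgr5. Group means were 0.91 ± 0.33 in CD24 low, 0.51 ± 0.08 in CD24 medium and −0.47 ± 0.11 in CD24 high (SD, n = 2 each). Uhrf1, the partner that recognises half-methylated DNA, spread further, with 0.78 and 0.76 in CD24 low, 0.89 and 0.02 in CD24 medium, −1.08 and −1.42 in CD24 high and 2.71 in Lgr5 cells. The Lgr5 array was the highest for Uhrf1 and both CD24 high arrays the lowest, while the CD24 medium replicates differed from each other by more than CD24 low and CD24 medium did on average. Hells, the remodeller, stood at −0.33 and −0.75 in CD24 low, −0.47 and −0.95 in CD24 medium, −0.98 and −0.84 in CD24 high and 1.16 in Lgr5 cells. For Hells the CD24 groups lay close together, with CD24 medium and CD24 high overlapping, and the Lgr5 array stood apart. On 1 of the 2 CD24 high arrays Hells was not well above background, and the closeness depended on the processing, as given below.

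Of the de novo methyltransferases, Dnmt3a departed from that order and Dnmt3b was highest in Lgr5 cells. Dnmt3a stood at 1.52 and 2.22 in CD24 low, 2.40 and 2.71 in CD24 medium, 1.21 and 1.10 in CD24 high and 1.53 in Lgr5 cells. By this probe CD24 medium was the highest group, and the Lgr5 array fell among the Dll1 arrays, between the CD24 low replicates. Dnmt3b stood at 0.04 and −0.15 in CD24 low, 0.16 and 0.06 in CD24 medium, −0.18 and −0.10 in CD24 high and 0.84 in Lgr5 cells. All 6 Dll1 arrays lay near the level of the whole organ for Dnmt3b and below the Lgr5 array, and neither CD24 high array was well above background. On the CD24 low and medium arrays its signal was weak as well, with sample intensities of 111 to 115 where the median gene spot had 94 to 107. Whether these levels near 0 come from weak signal was not tested.

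The PRC2 subunits differed from each other. Ezh2, the catalytic subunit, stood at −0.44 and −0.14 in CD24 low, −0.28 and −0.21 in CD24 medium, −1.06 and −0.86 in CD24 high and 0.38 in Lgr5 cells. As for Dnmt1, the Lgr5 array was highest and both CD24 high arrays lowest, but here CD24 low and CD24 medium overlapped. Suz12, the subunit that holds the complex together, stood at −0.86 and −1.12 in CD24 low, −0.87 and −0.93 in CD24 medium, −0.76 and −0.74 in CD24 high and −0.93 in Lgr5 cells. Its group means spanned 0.24, the smallest span of the 8 genes, against 3.96 for Uhrf1. Eed, which binds methylated histone H3, stood at −1.12 and −0.92 in CD24 low, −1.43 and −1.37 in CD24 medium, −0.94 and −0.87 in CD24 high and −0.41 in Lgr5 cells. For Eed the lowest group was CD24 medium, not CD24 high.

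**Figure D1:**
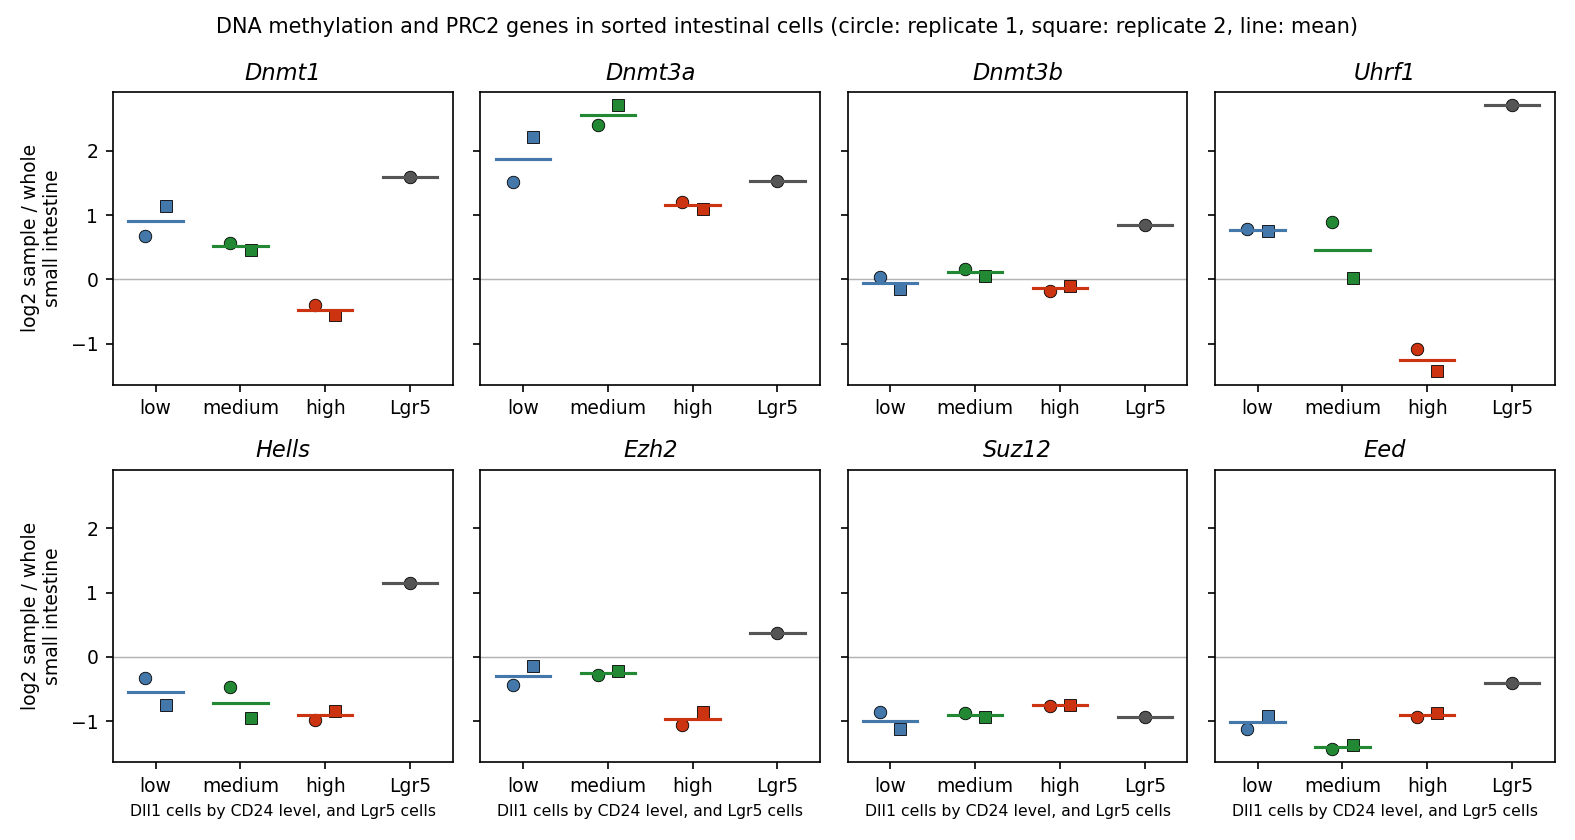
Level of each of the 8 genes (log2 of sample over whole small intestine, y axis) in Dll1 cells at CD24 low, medium and high and in Lgr5 cells (x axis). Circles are replicate 1, squares replicate 2 and lines group means; Uhrf1 ranges from −1.42 to 2.71 while Suz12 stays between −1.12 and −0.74.

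Dnmt1, Uhrf1, Dnmt3a and Ezh2 were higher in CD24 medium than CD24 high, and none of the 8 genes was lower. Of all genes tested, 7.54% were called higher and 13.4% lower in this comparison (limma with Benjamini-Hochberg adjustment over all genes, adjusted p under 0.05), so 4 of 8 stood above the background share. Over all genes, 36.1% of the calls were higher in CD24 medium, against 57.7% on Agilent's processed signals, 54.2% on the sample channel alone and 19.5% without high 2 (358 of 1840 calls). Uhrf1 was 3.26-fold higher (log2 difference 1.70, SE 0.30, adjusted p = 0.011), with differences of 1.97 on slide 1 and 1.44 on slide 2. Dnmt3a was 2.65-fold higher (1.40, SE 0.26, adjusted p = 0.013), with 1.20 on slide 1 and 1.61 on slide 2. Dnmt1 was 1.98-fold higher (0.98, SE 0.20, adjusted p = 0.019), and both slides gave about the same difference, 0.96 and 1.01. Ezh2 was 1.64-fold higher (0.72, SE 0.18, adjusted p = 0.033), with 0.78 and 0.65 on the slides. Eed pointed the other way without passing (−0.49, adjusted p = 0.070), and Hells and Suz12 had differences of 0.20 and −0.15. Dnmt3b, not well above background on either CD24 high array, did not pass. Processed signals made a call of Dnmt3b (higher in CD24 medium, adjusted p = 0.033), and the sample channel alone made one of Hells (0.87, adjusted p = 0.038), which was 2.54 on processed signals without passing (adjusted p = 0.066). These calls rest on 2 arrays a group. Without high 2 all 4 were lost, with adjusted p between 0.064 and 0.089. Without high 1 or medium 1, Dnmt1 and Ezh2 were lost, and without medium 2 Dnmt3a was lost as well (adjusted p 0.051 to 0.16). On the sample channel alone Dnmt3a did not pass (0.95, adjusted p = 0.072), whereas on processed signals Uhrf1 was 2.79 and Ezh2 1.44 higher.

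Between CD24 low and CD24 high, Dnmt1, Uhrf1 and Ezh2 were higher in CD24 low, 3 of 8 genes where 6.85% of all genes were called higher and 11.2% lower. CD24 high is shared with the previous comparison, so both rest on the same arrays. Uhrf1 was 4.06-fold higher (2.02, SE 0.30, adjusted p = 0.006) and Dnmt1 2.61-fold higher (1.38, SE 0.20, adjusted p = 0.0057). On slide 2 alone, which held 2 CD24 low arrays and 1 CD24 high array, the differences were 2.19 for Uhrf1 and 1.46 for Dnmt1. Both calls held when any 1 array was left out, and on processed signals Uhrf1 was 3.12 higher. Ezh2 was 1.59-fold higher (0.67, SE 0.18, adjusted p = 0.044, and 0.57 on slide 2), and this call was lost with slide as a term (adjusted p = 0.11), without low 2 (0.18) and without any 1 of the CD24 high and CD24 medium arrays (0.087 to 0.15). The Dnmt3a difference of 0.72 did not pass (adjusted p = 0.11), but it was 1.07 and passed without low 1 (adjusted p = 0.026), and was 0.37 without low 2 (adjusted p = 0.39). Hells was called on the sample channel alone (0.84, adjusted p = 0.040, against 0.37).

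Between CD24 low and CD24 medium, 0 of the 8 genes passed in limma, against 20 of 17507 genes (0.114%), all of them lower in CD24 low. At an unadjusted p under 0.05, 2 of the 8 genes lay below it, as did 10.6% of all genes. They were Dnmt3a (−0.69, interval −1.30 to −0.07) and Eed (0.38, interval 0.01 to 0.75), whose other probes gave −0.35 and −0.17 for Dnmt3a and −0.10 for Eed. The interval for Dnmt1 was −0.08 to 0.88 and that for Uhrf1 −0.39 to 1.03. These intervals are not adjusted over genes, whereas a call is, so they do not give the size of difference that would have passed. That size was not tested, and a gene that did not pass is not shown to have equal levels in both groups.

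Against Lgr5 cells, all calls among the 8 genes were in the direction of lower levels in Dll1 cells, while Dnmt3a in CD24 medium had a difference of 1.03 that did not pass (adjusted p = 0.068). Dnmt3a was called higher there without background subtraction (adjusted p = 0.037), with the filter on all 7 arrays (0.049) and without low 1 or low 2 (0.027 each). In CD24 high, 5 of 8 were lower, which were Uhrf1, Hells, Dnmt1, Ezh2 and Dnmt3b, where 35.9% of all genes were called, 14.6% lower and 21.2% higher, so the 8 genes had more calls lower and fewer higher than the background. Uhrf1 was 15.6-fold lower in CD24 high (−3.96, SE 0.36, adjusted p = 0.00062). Dnmt1 was 4.20-fold lower (−2.07, SE 0.24, adjusted p = 0.0015) and Hells 4.19-fold lower (−2.07, SE 0.28, adjusted p = 0.0025). Ezh2 was 2.53-fold lower (−1.34, SE 0.21, adjusted p = 0.0045). Dnmt3b, not well above background in CD24 high, was 1.98-fold lower as measured (−0.98, interval −1.44 to −0.52, adjusted p = 0.0091). On processed signals the differences were −4.84 for Hells and −2.21 for Ezh2, and Eed was called as well (−1.17, adjusted p = 0.017), as on the sample channel alone (−0.94, adjusted p = 0.012). All 5 calls held when any 1 of the 6 Dll1 arrays was left out, and on slide 1 alone, with 1 array each, the differences were −3.79 for Uhrf1, −1.99 for Dnmt1, −2.14 for Hells and −1.44 for Ezh2.

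In CD24 medium, 5 of 8 genes were lower than in Lgr5 cells, where 8.5% of all genes were called lower and 10.3% higher, again more calls lower than the background. Uhrf1 was 4.78-fold lower (−2.26, adjusted p = 0.0096) and Hells 3.65-fold lower (−1.87, adjusted p = 0.0082), and both kept their call without any 1 Dll1 array. Dnmt1 was 2.13-fold lower (−1.09, adjusted p = 0.027), Eed 1.99-fold lower (−0.99, adjusted p = 0.016) and Dnmt3b 1.66-fold lower (−0.73, adjusted p = 0.043). Those 3 calls were lost without medium 1 or medium 2 (adjusted p 0.073 to 0.18). Dnmt3b was also lost without either CD24 high array (0.062), and with slide as a term Dnmt1 (0.063) and Dnmt3b (0.087) were lost. On processed signals Uhrf1, Hells and Dnmt3b did not pass (−2.42, −2.30 and −1.20, adjusted p 0.083 to 0.18). Ezh2 did not pass (−0.62, adjusted p = 0.092), but it was called lower on the sample channel alone (−0.92). On slide 1 the differences were −1.82 for Uhrf1, −1.63 for Hells, −1.03 for Dnmt1, −1.03 for Eed and −0.68 for Dnmt3b.

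In CD24 low, 3 of 8 genes were lower than in Lgr5 cells, where 9.77% of all genes were called lower and 11.9% higher. Uhrf1 was 3.84-fold lower (−1.94, adjusted p = 0.015), Hells 3.24-fold lower (−1.70, adjusted p = 0.010) and Dnmt3b 1.86-fold lower (−0.90, adjusted p = 0.022). CD24 low and Lgr5 were never on the same slide, so no within-slide value exists, and with slide as a term none of the 3 passed (adjusted p 0.056 for Uhrf1, 0.067 for Hells and 0.10 for Dnmt3b). On processed signals none of the 3 passed either (−2.09, −2.22 and −1.51 for Uhrf1, Hells and Dnmt3b, adjusted p 0.10 to 0.16), and the Dnmt3b call was lost without low 2 (0.066). Dnmt1 (−0.69, adjusted p = 0.090), Ezh2 (−0.67, adjusted p = 0.070) and Eed (−0.61, adjusted p = 0.065) did not pass. Ezh2 and Eed were called lower without background subtraction (−0.70 and −0.69), on the sample channel alone (−1.02 and −0.92) and with the filter on all 7 arrays. Eed was also called on processed signals (−1.06), while its second probe gave −0.17. Suz12 passed in none of the 6 comparisons, with differences between −0.24 and 0.17. For CD24 high against Lgr5 its 95% interval, not adjusted over genes, ran from −0.30 to 0.65. The size of difference that would have passed was not tested, so equal levels of Suz12 are not shown.

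**Figure D2:**
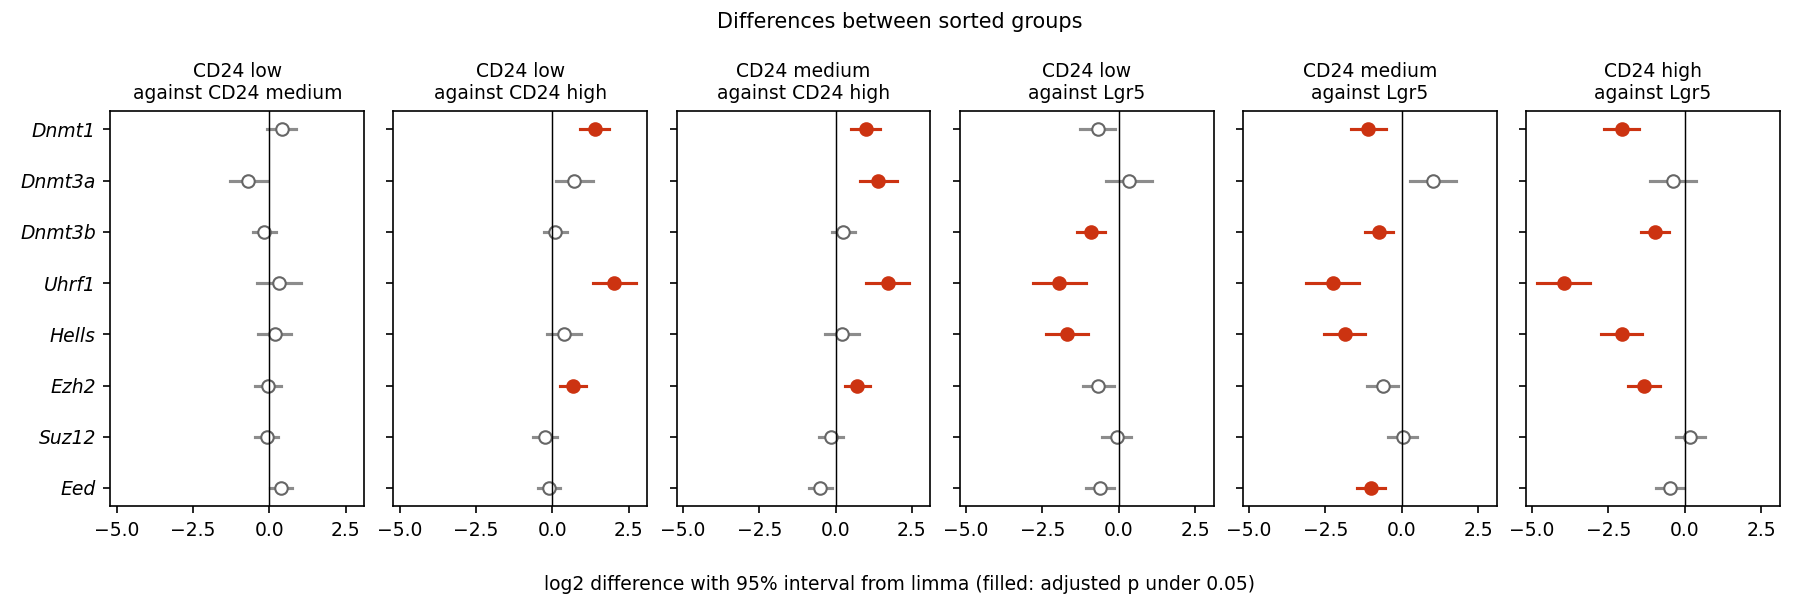
Log2 difference (x axis) of each gene (y axis) in the 6 comparisons, first-named group minus second. Bars are 95% intervals from limma and filled points have an adjusted p under 0.05; Dnmt1, Uhrf1 and Ezh2 lie right of 0 against CD24 high and left of 0 against Lgr5 cells, and all Suz12 intervals cross 0. Points of Dnmt3b against or in CD24 high rest on signal not well above background.

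Several probes of 1 gene did not always agree. Both Uhrf1 probes gave the same calls in all 6 comparisons, the second with smaller differences in the 5 comparisons that were called, such as 1.12 for CD24 medium against CD24 high and −3.07 for CD24 high against Lgr5. The Dnmt3a call for CD24 medium against CD24 high came from 1 probe of 3, which the array annotation assigns to another RefSeq transcript of Dnmt3a than the other probes. The other Dnmt3a probes gave differences of 0.26 (adjusted p = 0.33) and 0.11 (adjusted p = 0.74), and the probe with 0.11 was well above background on 3 of 7 arrays. Taken as the mean of all probes, Dnmt3a was 0.59 higher in CD24 medium and still passed (adjusted p = 0.037). The second Eed probe gave −0.06 for CD24 medium against Lgr5 (adjusted p = 0.88), against −0.99 for the chosen one, and the mean of the Eed probes did not pass (−0.53, adjusted p = 0.11). The second probe was much dimmer, with a mean log2 intensity of 7.15 against 10.10, and the array annotation assigns it to another transcript. It was well above background on 5 of 7 arrays, neither CD24 high array among them. The 2 Eed probes are therefore not of equal weight. One more Eed probe and the second Hells probe were well above background on 0 of 7 arrays. Both Suz12 probes passed in no comparison.

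**Figure D3:**
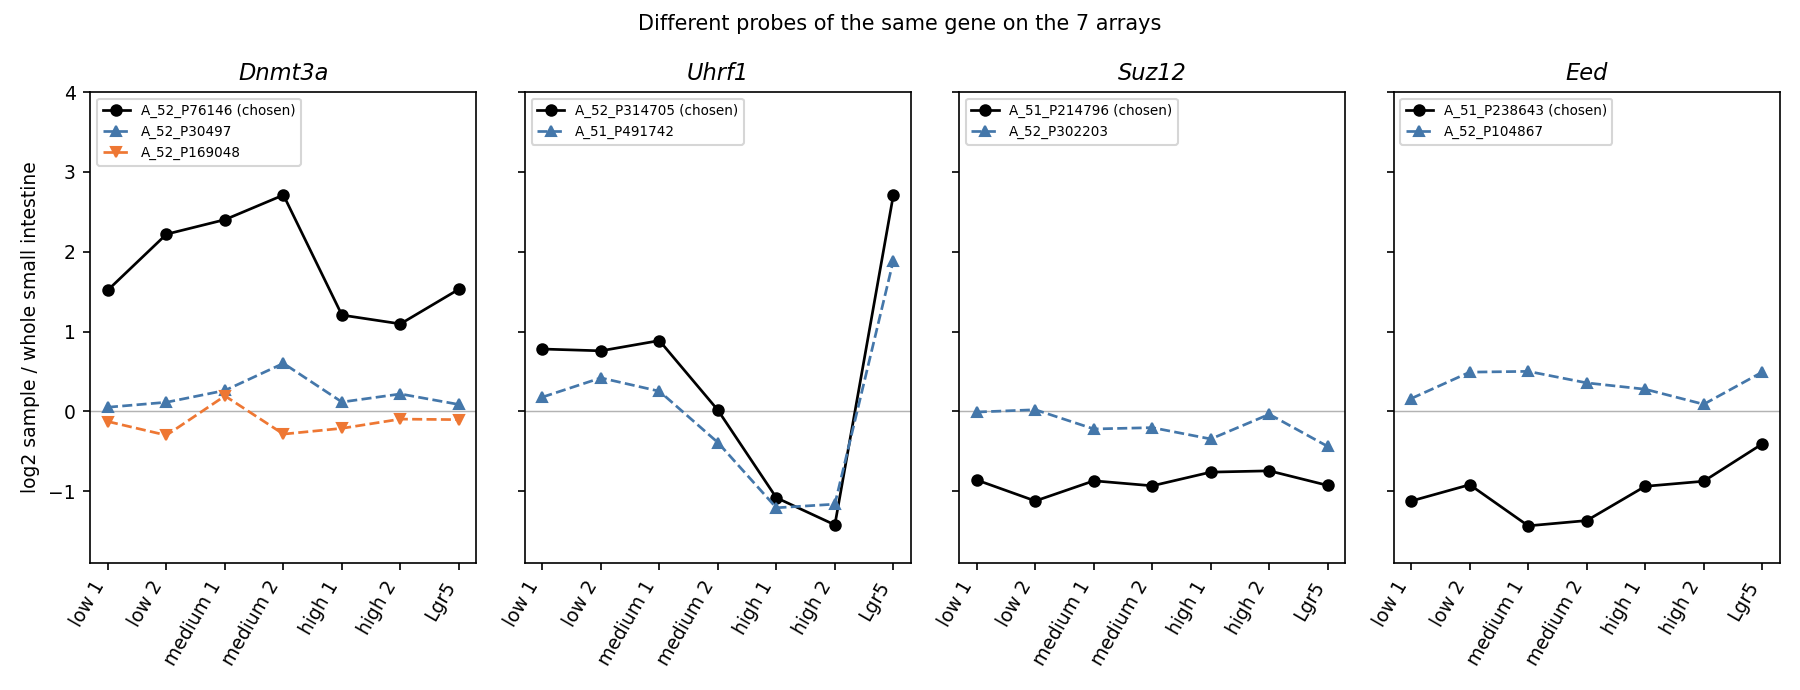
Level (log2 of sample over whole small intestine, y axis) on each of the 7 arrays (x axis) for every probe that passed the filter on dim signal, for the 4 genes with more than 1 such probe. Solid black lines are the chosen probes; the Uhrf1 probes run in parallel, whereas the other Dnmt3a probes stay between −0.30 and 0.60 where the chosen one lies between 1.10 and 2.71.

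The cell cycle lists moved in the same direction as Dnmt1, Uhrf1 and Ezh2. Of 28 S phase genes measured, 16 were higher and 1 lower in CD24 medium than CD24 high, and 16 were higher and 0 lower in CD24 low than in CD24 high. Against Lgr5 cells, 19 were lower in CD24 low, 22 in CD24 medium and 24 in CD24 high, and 0 were higher. The median S phase level was 0.08 and 0.03 in CD24 low, 0.04 and −0.27 in CD24 medium, −0.77 and −0.82 in CD24 high and 1.25 in Lgr5 cells. The median difference over these genes was 0.82 for CD24 medium against CD24 high, beside 0.48 for the 8 chromatin genes, with Dnmt3b at its measured value, and 0.01 for all genes. For CD24 high against Lgr5 the medians were −1.99 for S phase genes, −1.16 for the 8 genes, Dnmt3b again as measured, and 0.10 for all genes. Of 25 genes of G2 and mitosis, 15 were higher in CD24 medium and 20 in CD24 low than in CD24 high, and 7, 18 and 21 were lower in CD24 low, medium and high than in Lgr5 cells. Among all genes, 7.54% were higher in CD24 medium and 6.85% in CD24 low than in CD24 high. Against Lgr5 cells, 9.77, 8.5 and 14.6% were lower in CD24 low, medium and high. On high 1 and high 2, 21 and 16 of the 25 genes were well above background. Mki67, a marker of cycling cells, stood at 0.56 and 0.36 in CD24 low, −0.03 and −0.41 in CD24 medium, −1.94 and −2.59 in CD24 high and 0.39 in Lgr5 cells. Mki67 in CD24 low was thus near the Lgr5 array, where Uhrf1 and Hells were lower in CD24 low. What share of each gene's difference goes with proliferation was not tested.

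Set against the S phase median of the same array, the 8 genes differed from each other. Dnmt1 lay 0.60 and 1.12 above the S phase median in CD24 low, 0.53 and 0.73 in CD24 medium, 0.37 and 0.27 in CD24 high and 0.35 in Lgr5 cells. Dnmt1 therefore stayed above that median on all 7 arrays, and CD24 high and Lgr5 had like values although their Dnmt1 levels differed most. Hells lay −0.42 and −0.78 from it in CD24 low, −0.51 and −0.68 in CD24 medium, −0.21 and −0.02 in CD24 high and −0.10 in Lgr5 cells. The value of −0.02, from high 2, rests on Hells signal that was not well above background. Uhrf1 was steeper than the S phase median, at 0.70 and 0.73 above it in CD24 low, 0.85 and 0.29 in CD24 medium, −0.31 and −0.60 in CD24 high and 1.46 in Lgr5 cells. Suz12 was flat and so went the other way, at −0.94 and −1.15 in CD24 low, −0.91 and −0.66 in CD24 medium, 0.01 and 0.07 in CD24 high and −2.18 in Lgr5 cells. Dnmt3a lay 1.44 and 2.19 above the S phase median in CD24 low, 2.36 and 2.98 in CD24 medium, 1.97 and 1.91 in CD24 high, but 0.28 in Lgr5 cells. Relative to S phase genes, all 6 Dll1 arrays had more Dnmt3a than the Lgr5 array by this probe. Ezh2 lay −0.52 and −0.17 from that median in CD24 low, −0.32 and 0.06 in CD24 medium, −0.29 and −0.04 in CD24 high and −0.87 in Lgr5 cells, so it lay further below the median on the Lgr5 array than on any Dll1 array. Eed lay −1.21 and −0.94 from it in CD24 low, −1.47 and −1.09 in CD24 medium, −0.17 and −0.06 in CD24 high and −1.66 in Lgr5 cells. Dnmt3b lay −0.05 and −0.18 from it in CD24 low, 0.12 and 0.33 in CD24 medium and −0.41 in Lgr5 cells, and in CD24 high it was not well above background. These relative levels are descriptions and were not tested.

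**Figure D4:**
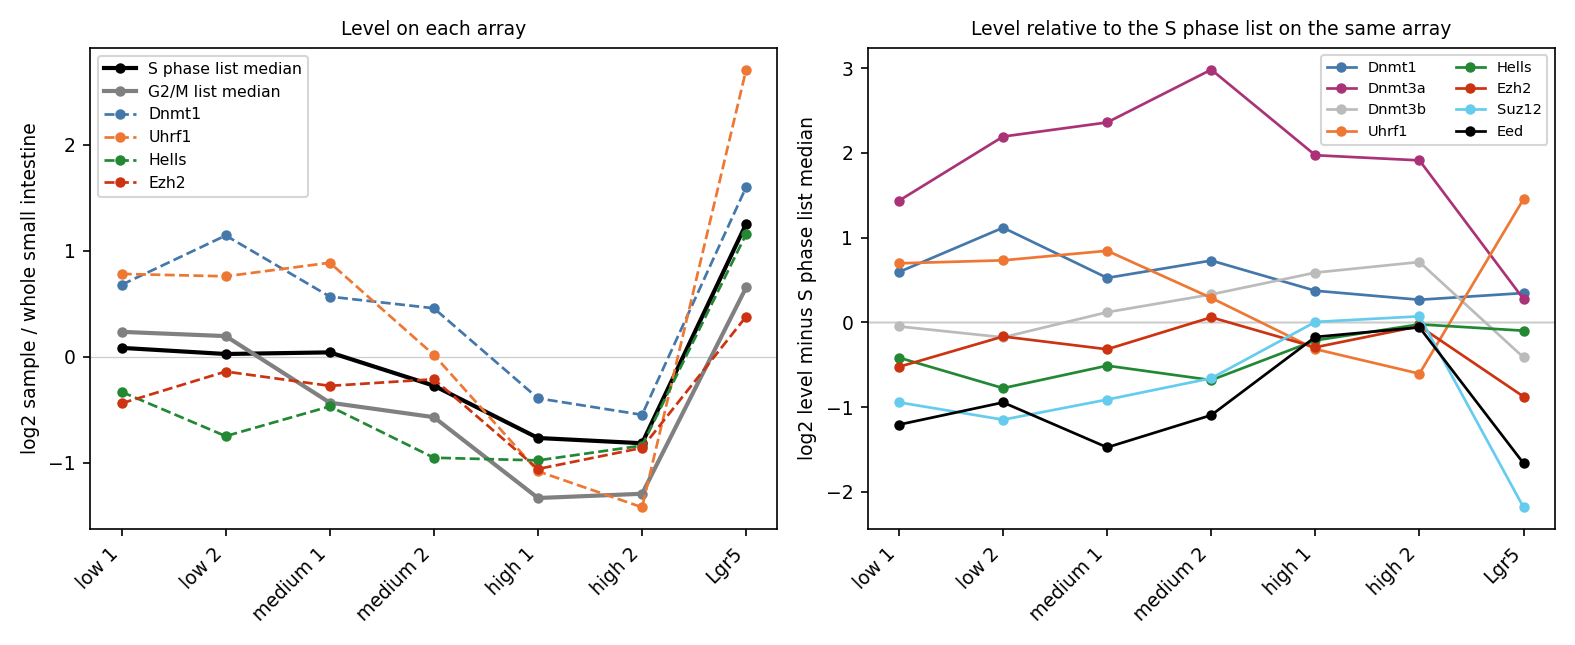
Left, levels (log2 of sample over whole small intestine) of 4 genes and the medians of 28 S phase and 25 G2 and mitosis genes on each array; right, level of each of the 8 genes minus the S phase median of the same array. Dnmt1 stays above the S phase median on all 7 arrays, Uhrf1 crosses it in CD24 high, and Suz12 is near it in CD24 high and −2.18 from it in Lgr5 cells.

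The genes whose pattern over the 7 arrays was nearest, measured as the root mean square difference after centring each gene, are given for the 5 genes whose group means spanned at least 1. For Uhrf1 they were Mcm6, a subunit of the replicative helicase (0.30), Rrm1, the large subunit of ribonucleotide reductase (0.30), and Prim1, the catalytic primase subunit (0.33), and 0 of 17327 genes came within 0.25. For Dnmt1 they were Fads2, a fatty acid desaturase (0.10), Cit, a kinase of cytokinesis (0.11), and Mcm3, another helicase subunit (0.11), with 67 genes within 0.25. Hells was nearest to Fam136a, Psmc3ip, a factor of homologous recombination, and Snx7 (all 0.11), with 89 genes within 0.25. Ezh2 was nearest to Dnajc2, Thoc3 and Pnpt1 (0.08 to 0.11), and with 796 genes within 0.25 its pattern was a common one. Dnmt3a was nearest to Zfp821, Wnt9b and Phip (all 0.15), with 58 genes within 0.25. Among the 8 genes themselves, Dnmt3b and Ezh2 were the nearest pair (0.27) and Uhrf1 and Suz12 the farthest (1.35).

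Other genes of DNA methylation and its removal were compared from lists chosen for their role. Cdca7, which works with Hells in mammals, was the cofactor that differed most, at 0.30 and 0.46 in CD24 low, 0.45 and 0.09 in CD24 medium, −0.24 and −1.05 in CD24 high and 3.18 in Lgr5 cells. Its difference from Lgr5 cells was −2.80 in CD24 low (adjusted p = 0.0045), −2.91 in CD24 medium (adjusted p = 0.0043) and −3.82 in CD24 high (adjusted p = 0.00064). Its relative Cdca7l was also lower in CD24 high, where it was not well above background (adjusted p = 0.0019). Of 13 cofactors and methyl-CpG readers, 4, 3 and 4 were lower in CD24 low, medium and high than in Lgr5 cells and 1, 0 and 2 were higher (all genes: 9.77, 8.5 and 14.6% lower, 11.9, 10.3 and 21.2% higher). In CD24 medium against CD24 high 0 were higher and 2 lower (all genes: 7.54 and 13.4%). The 2 were Zbtb4 and Mbd1, readers of methylated DNA (−0.80 and −1.01), though the other probes did not pass (−0.49 for Zbtb4, and 0.61 and −0.45 for Mbd1). Of 8 genes tied to demethylation, Gadd45b and Gadd45g, stress-response genes of the Gadd45 family, and by its chosen probe Apobec1, an RNA-editing enzyme of enterocytes, were higher than in Lgr5 cells in all 3 Dll1 groups. Gadd45g stood at 1.04 and 1.98 in CD24 low, 2.45 and 2.93 in CD24 medium, 4.81 and 4.56 in CD24 high and −1.38 in Lgr5 cells, an order opposite to that of Uhrf1. For Apobec1 in CD24 low the chosen probe gave 2.98 and its other probe 0.47. That other probe gave 0.16 in CD24 medium and 0.83 in CD24 high, and passed only in CD24 high (limma adjusted p = 0.018). Against CD24 high, Gadd45a was 2.59 higher in CD24 medium (adjusted p = 0.0099). Tet1, Tet2 and Tet3, which oxidise methylated cytosine, passed in no comparison with Lgr5.

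Around PRC2, Phf1, a Polycomb-like partner of PRC2, was higher than in Lgr5 cells by 1.62 in CD24 low (adjusted p = 0.0072), 1.79 in CD24 medium (adjusted p = 0.0056) and 2.45 in CD24 high (adjusted p = 0.00078). Rbbp4, a histone-binding subunit, was lower by its chosen probe in CD24 low (−1.23) and CD24 high (−1.43). Of 3 other Rbbp4 probes, 1 was lower as well (−0.92 and −1.22) and 2 did not pass (−0.36 and −0.32 in CD24 low, −0.21 and 0.21 in CD24 high). Phf19, a relative of Phf1, was lower in CD24 medium (−1.14) and CD24 high (−1.07). Of 7 PRC2 partners, 1 was higher in each Dll1 group than in Lgr5 cells and 2, 2 and 3 were lower in CD24 low, medium and high (all genes: 11.9, 10.3 and 21.2% higher, 9.77, 8.5 and 14.6% lower). Among 20 genes of the sister complex PRC1, Pcgf6 was the one that was lower than in Lgr5 cells in all 3 Dll1 groups (−1.38, −0.98 and −1.12 in CD24 low, medium and high), but its other probe gave −0.54, −0.56 and 0.19 and passed in none of them. In those groups 4, 1 and 3 of the 20 were lower than in Lgr5 cells (all genes: 9.77, 8.5 and 14.6%). The 1 called higher was Rybp in CD24 medium, by both probes (1.35 and 1.22). In CD24 medium against CD24 high, 3 were higher and 2 lower (all genes: 7.54 and 13.4%). The 3 included Cbx6 (1.42) and Cbx2 (1.07), whose other probes did not pass. Bmi1, a PRC1 subunit used as a marker of reserve stem cells, differed in CD24 low by −0.86 from CD24 high and by −1.21 from Lgr5 cells, while its other probe gave −0.40 and 0.23 and did not pass. Kdm6b, a demethylase that removes the PRC2 mark, was higher than in Lgr5 cells by 2.02 in CD24 low, 2.33 in CD24 medium and 2.50 in CD24 high (adjusted p 0.0014 to 0.0067), and it alone of 6 genes that oppose Polycomb was called there. Of 10 genes known as Polycomb targets, 3, 5 and 3 were higher than in Lgr5 cells in CD24 low, medium and high and 0 were lower. Over all genes 11.9, 10.3 and 21.2% were higher, so the count in CD24 high was near that share. The list holds Neurog3, which is also an enteroendocrine marker here, and what the counts say of Polycomb was not tested. Cdkn1a, an inhibitor of cell cycle kinases, was 3.16, 3.72 and 3.72 higher, and Cdkn2b was 3.75 higher in CD24 low and 2.59 in CD24 high.

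**Figure D5:**
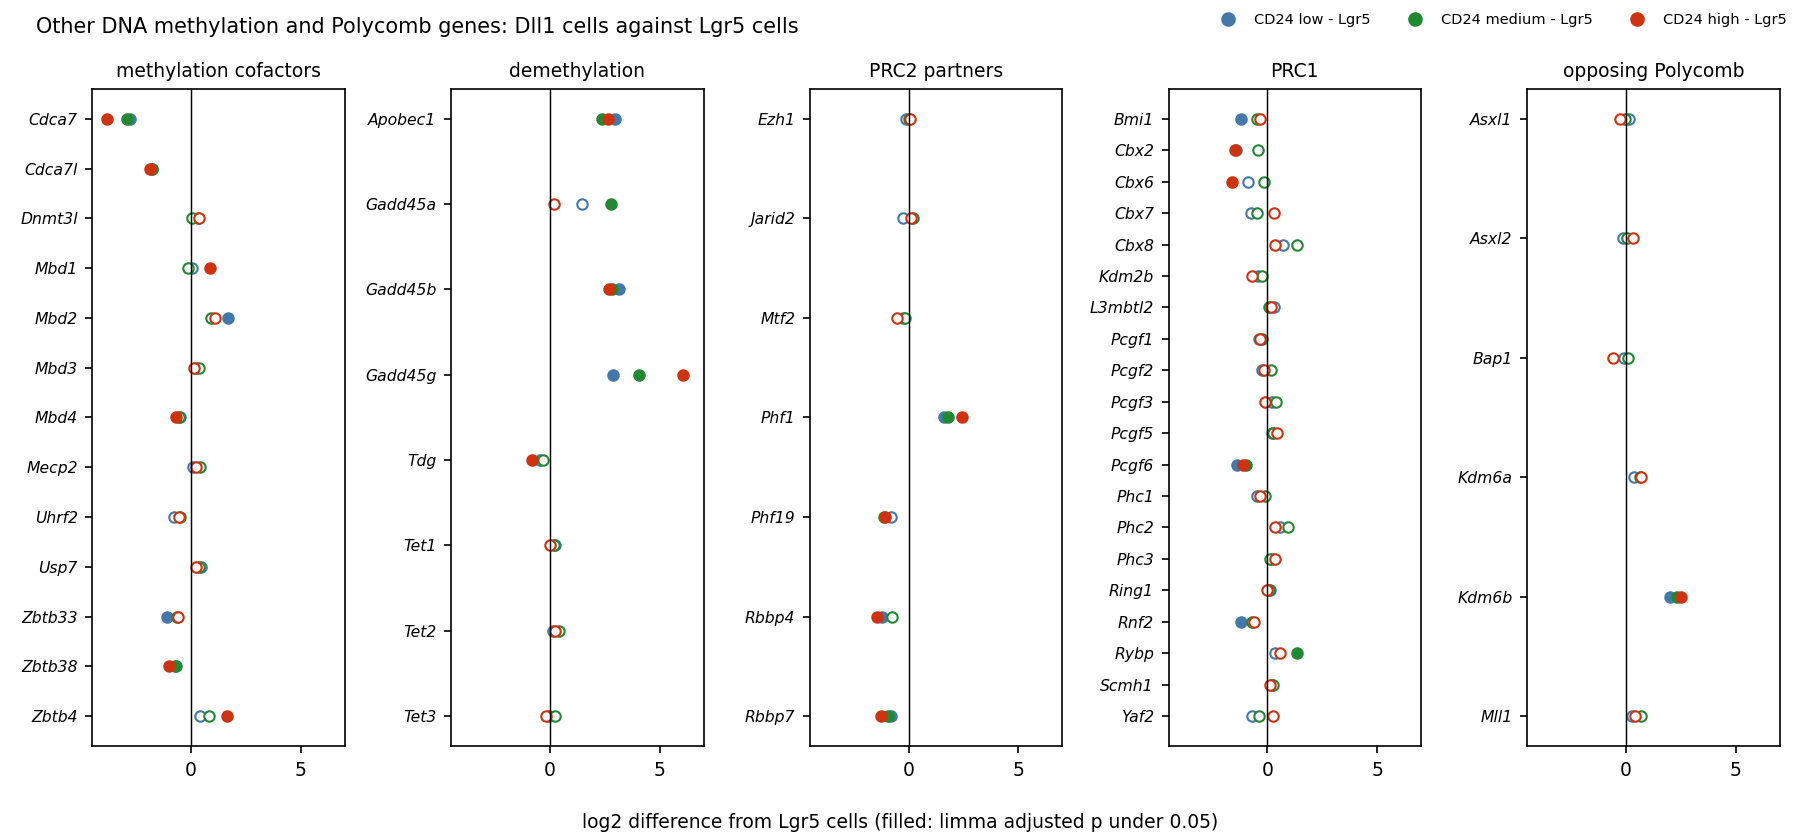
Log2 difference (x axis) of Dll1 cells at each CD24 level minus Lgr5 cells for genes of 5 lists around DNA methylation and Polycomb (y axis); filled points have a limma adjusted p under 0.05. Cdca7 lies at −3.82 to −2.80, Gadd45g reaches 6.07, and Phf1 and Kdm6b are right of 0 at all 3 levels.

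Among the Dll1 groups, the lists for stem cell state and plasticity did not follow Dnmt1 and Uhrf1. Of 17 genes of stem cells and the crypt base, 10 were lower and 1 higher in CD24 medium than CD24 high, and 10 were lower in CD24 low than in CD24 high, where Dnmt1, Uhrf1 and Ezh2 were higher. Among all genes, 13.4% were lower and 7.54% higher in CD24 medium than CD24 high, and 11.2% were lower in CD24 low. Ephb3, a receptor of the crypt base, stood at 0.21 and 0.45 in CD24 low, 1.35 and 1.72 in CD24 medium, 3.95 and 3.72 in CD24 high and 1.33 in Lgr5 cells. In CD24 high it thus stood above the Lgr5 array, so this list does not read stem cell state alone. The median of the 17 was −0.38 and −0.09 in CD24 low, 0.12 and 0.10 in CD24 medium, 0.45 and 0.25 in CD24 high and 1.29 in Lgr5 cells. Against Lgr5 cells, 12, 9 and 9 of the 17 were lower in CD24 low, medium and high, and 0, 0 and 3 were higher (all genes: 9.77, 8.5 and 14.6% lower, 11.9, 10.3 and 21.2% higher). Olfm4, a stem cell marker, differed by −4.46, −4.60 and −3.78. Against CD24 high it did not pass in CD24 medium (−0.82, adjusted p = 0.071) or CD24 low (−0.67, adjusted p = 0.13). Of 8 genes of reserve stem cells or damage response, 3 were lower in CD24 medium and 4 in CD24 low, against CD24 high. Anxa1, a membrane-binding protein induced in damaged epithelium, differed from CD24 high by −1.76 in CD24 medium and −1.32 in CD24 low, and was 2.51 higher in CD24 high than in Lgr5 cells.

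Markers of secretory cells and of their progenitors moved with the same groups. The median level of 6 Paneth cell genes was −2.76 and −2.53 in CD24 low, −0.53 and −0.12 in CD24 medium, 4.80 and 4.97 in CD24 high and −3.16 in Lgr5 cells, and all 6 were well above background on all 7 arrays. CD24 high, where Dnmt1, Uhrf1 and Ezh2 were lowest, thus had the highest Paneth levels, and all 6 were lower both in CD24 medium and in CD24 low. The median of 12 enteroendocrine genes was 1.36 and 3.06 in CD24 low, 3.04 and 4.78 in CD24 medium, −0.09 and −0.06 in CD24 high and −0.93 in Lgr5 cells, and 10 were higher in CD24 medium than CD24 high. In CD24 low and CD24 medium, Dnmt3a by its chosen probe was higher in replicate 2, as was this median. In CD24 high the chosen probe was lower in replicate 2 (1.21 and 1.10). The brighter of the other Dnmt3a probes was also higher in replicate 2 of CD24 low (0.05 and 0.11) and CD24 medium (0.26 and 0.60). The dimmer was lower there, at −0.13 and −0.30 in CD24 low and 0.19 and −0.28 in CD24 medium. Whether Dnmt3a goes with this median was not tested. Neurog3, which starts the enteroendocrine lineage, stood at 1.43 and 4.01 in CD24 low, 4.86 and 5.32 in CD24 medium, 0.70 and 0.30 in CD24 high and 1.15 in Lgr5 cells. The median of 7 goblet cell genes was 3.73 and 3.07 in CD24 low, 3.42 and 3.15 in CD24 medium, 2.35 and 1.91 in CD24 high and −2.66 in Lgr5 cells. Medians of 10 immune genes lay between −1.68 and −0.33 and those of 8 stromal genes between −4.03 and −2.45 over the 7 arrays, below the whole organ on every array, with CD24 high highest and Lgr5 lowest for both. The part of these cell types in the differences of the 8 genes was not tested.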

How the data were processed

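RNA of 7 sorted samples (100 ng each, Trizol) was hybridised against whole small intestine RNA, per the labels' protocols. Spot and background intensity values of both channels come from Agilent Feature Extraction 10.5.1.1 on mm9, per the file headers. The deposited series matrix holds log10 ratios; checked spot by spot, it equals minus the log10 ratio (red over green) of the array files. The dyes were not swapped, and a dye effect shared by all arrays cancels between groups.

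From these, log2 ratios were computed with normexp background correction (offset 50) and loess within each array (span 0.3) in limma 3.58.1 under R 4.3.3. Spots marked as outliers in the sample channel were dropped. A probe stayed if 2 or more of the 7 arrays had its sample signal well above background (24455 probes), and a gene took its brightest probe. Of all probes, 26918 were named through RefSeq. The limma model had a mean for each of the 4 groups (3 residual degrees of freedom), with Benjamini-Hochberg adjustment over 17507 genes (17462 with Lgr5) and a threshold of 0.05. The fit was tested on simulated data. A gene of the PRC1 list is not reported here. Figures used matplotlib 3.10.9 under Python 3.11.15.

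The 8 genes and all lists were chosen with earlier results of these data known. Named besides the 8 genes are up to 2 list genes with the largest difference past the threshold in a comparison (1 where none passed), the nearest genes by pattern, and Cd24a, Dll1, Lgr5 and Mki67. Tet1, Tet2, Tet3 and the further comparisons of a named gene were given after their values were seen. Alternatives covered background correction, scaling, filters, probe choice, slide, replicate block and leaving out each array. Scaling of average intensity left the log ratios as they were, so it could not change a call. The series matrix holds nearly the same ratios as Agilent's processed signals, so these are not separate checks. Coordinates of probes are on mm9, and those of RefSeq promoters on GRCm38.p6 were not mixed with them.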

Additional observations from a re-analysis of the deposited data

How the results depend on the processing

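No call among the 8 genes changed direction under any alternative. The count of called genes for CD24 medium against CD24 high (4) was 0 to 4 when 1 array was left out, 5 on processed signals and the series matrix, where Dnmt3b gained a call, and 1 on slide 2 alone, an alternative chosen after seeing the data. On the sample channel alone it was 4, with Hells gained and Dnmt3a lost. For CD24 low against CD24 high (3) the range was 2 to 4, with 4 on the sample channel alone, where Hells gained a call, and for CD24 high against Lgr5 (5) it was 5 without any 1 Dll1 array, 6 on processed signals, the series matrix and the sample channel alone, where Eed gained a call, and 3 with the filter on all 7 arrays, which removes Dnmt3b and Hells. For CD24 medium against Lgr5 (5) it was 2 to 6, with 2 for Agilent's processed signals, 2 for the series matrix and 3 with slide as a term. For CD24 low against Lgr5 (3) it was 2 to 3, with 5 without background subtraction, 1 for processed signals, 1 for the series matrix, 5 for the sample channel alone and 0 with slide as a term. CD24 low against CD24 medium stayed at 0. Same-numbered replicates correlated in their deviations at 0.30 (high and medium), −0.01 (high and low) and 0.48 (medium and low). These values do not settle whether the replicate numbers are pairs, and the main model did not take them as pairs. With the replicate block the counts were 4, 3 and 0 for CD24 medium against high, low against high and low against medium.

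Processed signals moved the median of all genes to 0.21 for CD24 medium against high, 0.24 for low against high and −0.15 for high against Lgr5, against 0.01, 0.02 and 0.10. They also moved the share of higher genes among those called to 57.7%, 58.5% and 44.4%, against 36.1%, 37.9% and 59.2%, and the sample channel alone to 54.2%, 52.4% and 41.4%. For medium against high it was 19.5% without high 2 and 26.1% without medium 2, and for low against high 24.4% without high 2 and 47.4% without low 1. For medium and low against Lgr5 the sample channel alone moved it to 42.9% and 39.2%, against 54.8% and 55.01%, and slide as a term to 67.2% for low against Lgr5. Processed signals gave larger differences for genes dim in CD24 high, such as −4.84 for Hells and −2.21 for Ezh2 against Lgr5, 2.79 for Uhrf1 and 1.44 for Ezh2 in medium against high, and the cause was not tested.

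All differences that changed sign were uncalled, and the cause was not tested. When 1 array was left out, they ranged from −0.045 to 0.44 for Hells in medium against high, −0.0089 to 0.18 for Dnmt3b in low against high, −0.0099 to 0.69 for Dnmt3a in low against Lgr5, −0.0048 to 0.058 for Suz12 in medium against Lgr5 and −0.19 to 0.067 for Suz12 in low against Lgr5. In low against medium the ranges were −0.12 to 0.75 for Uhrf1, −0.072 to 0.41 for Hells, −0.20 to 0.10 for Ezh2 and −0.22 to 0.041 for Suz12. On processed signals, and on the series matrix, Suz12 turned to 0.043 in medium against high, −0.20 in high against Lgr5 and −0.16 in medium against Lgr5, and Eed to 0.11 in low against high. On the sample channel alone, Suz12 turned to 0.20 in medium against high, 0.0066 in low against high and −0.063 in high against Lgr5, Eed to 0.023 in low against high, Hells to −0.029 in low against medium and Dnmt3a to 0.10 in high against Lgr5. With the mean of all probes, Suz12 turned to 0.064 in low against medium and 0.19 in low against Lgr5, and Eed to 0.015 in low against high. On slide 2 alone Hells turned to −0.11 in medium against high. Over all genes, the calls for low against high were 5040 without background subtraction, 5689 on processed signals and 1327 on slide 2 alone, against 3164, those for low against Lgr5 1402 with slide as a term, against 3792, and those for medium against high 1019 on slide 2 alone, against 3659. Without 1 array the lowest counts were 1269 for medium against high, 1679 for low against high, 1382 for medium against Lgr5 and 2286 for low against Lgr5. Signal limits the dim genes: Dnmt3b was not well above background on either CD24 high array.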
